A study of Polypedilum vanderplanki with 84 samples.

Results

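The genes described here are the most abundant transcripts of Pv11 cells that stayed within a narrow range while the cells were preconditioned, dried and rehydrated. They numbered 120 of 18248 genes, or 0.658% of all genes, and together they held between 25.3% and 50.1% of the transcripts in each of 84 libraries. They were chosen by their measured values. The level of a gene was its TPM, a transcript's share of its library after correction for transcript length, scaled to a fixed total and summed over the transcripts of the gene. A member had an ID made of g and a number, a mean above 1000 TPM over all 84 libraries, a mean at 1 h after heat below 2 times the Control 1 h mean, and time-course group means that spanned less than 3-fold, with 1 TPM added to both sides of each ratio. The genes g16168 to g16208, which span the anhydrobiosis island ARId1, and g3611, g7210, g5893, g11889 and g7775 were left out by ID. Mean levels, the heat ratio at 1 h and the time course are therefore given as descriptions with no test.

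Pv11 is a cultured cell line of the anhydrobiotic midge *Polypedilum vanderplanki*. In the stress experiment, 1 set of cells was held at 42 °C for 15 min (Heat), others received the salt NaCl, the herbicide paraquat at 20 µM, or one of the solutes trehalose and mannitol, each at 600 mM, and untreated cells served as Control. Sampling of each at 1, 3 and 24 h gave 54 libraries in 18 groups. No NaCl concentration is given here. The time course of 30 libraries in 10 groups came from an earlier experiment of the authors, in which cells were kept in 600 mM trehalose (PreCondTre) for 0, 12, 24, 36 and 48 h, dried, and sampled 0, 3, 12, 24 and 72 h after rehydration. Every group had 3 biological replicates, and all groups came from 1 cell line.

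As background, midge larvae accumulate the sugar trehalose when they dry, and trehalose and late embryogenesis abundant (LEA) proteins, many of which are encoded in ARId1, protect the dry cell. NaCl, mannitol and trehalose all raise the osmotic strength of the medium, paraquat generates superoxide inside the cell, and heat unfolds proteins. The most abundant steady transcripts of growing eukaryotic cells generally serve housekeeping work such as translation, energy metabolism and the cytoskeleton. Since TPM values are shares of a fixed total, a group of transcripts that fills much of the library moves every other value when it moves, and every other value moves it. The sources used here pair none of the 120 IDs with a name or function, so members are given by ID and no role is assigned to any of them.

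Each library summed to between 999998 and 1000001 TPM, so sequencing depth is unknown and no counting interval is given. Between 11842 and 13991 genes per library had a value above 0. Some libraries stood apart from their group in the members' share of the total. Control 3 h replicate 2 had 31.0%, against 41.4% and 37.2% in the other Control 3 h libraries. The shares and counts at 3 h are given with and without it. NaCl 1 h replicate 2 had 50.1%, against 43.5% and 43.0% in its group, and PreCondTre 36 h replicate 3 had 32.8%, against 38.2% and 38.6%. The libraries are bulk samples, in which fewer cells with a transcript and less of it per cell cannot be told apart.

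Of 17156 genes with g and a number as ID, 156 averaged above 1000 TPM. The 36 that were left out comprised 13 with a listed ID, 1 past the heat limit alone, 19 past the time-course limit alone and 3 past both limits. At the lower edge of the mean level, g6618 at 1007 TPM and g7800 at 1024 TPM were just inside, and g26682 at 999 TPM and g11783 at 994 TPM were just outside. The heat limit had a wide margin. The highest ratios inside were 1.05 for g11137 and 1.04 for g1896, and the gene left out by it alone, g2685, had 2.31. At the time-course limit, g6548 (a span of 2.9998-fold) and g8645 (2.94-fold) were just inside, and g7339 (3.13-fold) and g1576 (3.60-fold) were just outside.

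The members' mean levels ran between 1007 and 9890 TPM with a median of 3281 TPM. There were 69 above 3000 TPM, 19 between 2000 and 3000 TPM and 32 below 2000 TPM. The level was spread over many genes, since the 10 most abundant members held 17.5% of the members' TPM. These were g10339 (9890 TPM), g9066 (8403 TPM), g2519 (7516 TPM), g3343 (7270 TPM), g11302 (6550 TPM), g11474 (5931 TPM), g11137 (5706 TPM), g6548 (5694 TPM), g9862 and g4090. All members were detected in every library, with single values between 478 TPM (g7800 in a Control 24 h library) and 13184 TPM. Replicates were close. The coefficient of variation within a group, taken as a median over groups for each gene, was 5.62% for the median member, 1.80% for the steadiest and 17.2% for the least steady.

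Through drying itself the members changed little. Rehydration 0 h, the first sample after drying, over PreCondTre 48 h, the last before it, gave a median ratio of 1.07, with 116 of 120 members within 1.5-fold and extremes of 0.519 for g9262 and 1.59 for g9526. Both groups entered the time-course limit of the rule, and no share of all genes within 1.5-fold is given here, so this is a description. Of 8943 genes with such IDs and a mean above 1 TPM, 53.2% also spanned less than 3-fold over the time course. Over the whole time course the members were less steady. The share of TPM they held was 42.3% ± 1.28 at PreCondTre 0 h, 33.0% ± 2.47 at 12 h, 37.2% ± 0.215 at 24 h, 36.5% ± 3.28 at 36 h and 33.8% ± 0.467 at 48 h, then 35.1% ± 0.774 at Rehydration 0 h, 31.7% ± 0.779 at 3 h, 25.7% ± 0.542 at 12 h, 27.9% ± 0.701 at 24 h and 29.7% ± 0.867 at 72 h (SD, n = 3 each). At 12 h of rehydration the median member stood 0.87 below its starting level on the log2 scale (median -0.87), where the median of all genes with such IDs and a mean above 1 TPM stood at 0.76. Of the members, 77 were highest at PreCondTre 0 h and 72 were lowest at Rehydration 12 h, and no such counts for all genes are given here.

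**Figure D1:**
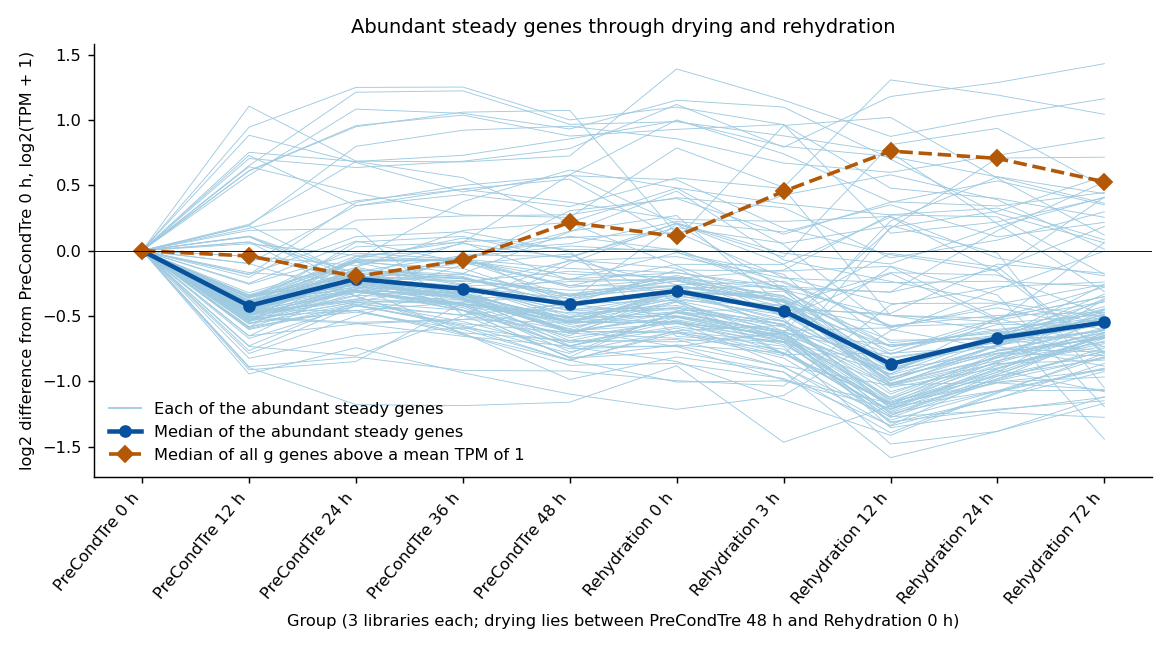
Members in the drying and rehydration time course, in the order of sampling, as log2 change from PreCondTre 0 h of each member's group mean of 3 libraries, with the median of the members beside that of all genes with such IDs and a mean above 1 TPM. Thin lines are single members, and the median member stays below its start at every later time and reaches -0.87 at Rehydration 12 h, where the median of all such genes is at 0.76.

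The members did not move as 1 block. The 4 members that stood lowest against the start at Rehydration 12 h were g6548 (-1.58), g9715 (-1.48), g556 (-1.41) and g11302 (-1.39), and the 4 that stood highest were g9940 (1.31), g4530 (1.18), g4090 (1.02) and g9526 (0.87), all as log2 ratios. Here g6548 is one of the members with the widest span in the rule. It had 2431, 2288 and 2403 TPM at Rehydration 12 h, against 6721, 8127 and 6522 TPM at PreCondTre 0 h. In contrast, g9940 had 2123, 2034 and 1962 TPM at Rehydration 12 h, against 862, 725 and 885 TPM at PreCondTre 0 h. The libraries of the 2 times did not overlap for either gene, and the genes moved in opposite directions. The steadiest of the 10 most abundant members was g11137, whose group means spanned 1.31-fold over the time course, with 7159, 7024 and 7057 TPM at Rehydration 12 h, against 5834, 5031 and 5791 TPM at PreCondTre 0 h. The members that stood above their start were mostly of low mean level. Among the 69 members above 3000 TPM, 4 stood above their start at Rehydration 12 h and the median was -1.03, whereas among the 32 below 2000 TPM, 14 did and the median was -0.07. The rule used both the mean level and the time course, and a gene near the limit of 1000 TPM could pass through its rise, so this is a description of the genes chosen. Other than g6548, g11302, g11137, g4090 and g9526, the genes named here were chosen after their values were seen.

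After heat shock, the members were slightly lower as a group. At 1 h, 93 of 120 had a ratio of Heat to Control means below 0.9, the median ratio was 0.856, and the range was 0.783 to 1.05. This ratio was part of the rule, so it is a description. It was not set beside the same ratio of all genes, so the shift cannot be called particular to the members. The 36 abundant genes left out, some of them past the heat limit, held 12.9% ± 0.0886 of TPM in Heat 1 h, against 11.9% ± 0.240 in Control 1 h.

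The question put to the stress data was how the share of TPM held by these genes shifted under each stress. At 1 and 3 h, the share was higher under the osmotic stresses and not under heat or paraquat. It was 45.5% ± 3.95 in NaCl 1 h, 47.2% ± 2.83 in Mannitol 1 h and 44.96% ± 1.71 in Trehalose 1 h, against 40.7% ± 1.55 in Control 1 h (SD, n = 3 each). Every library of these 3 stress groups was above every Control 1 h library. The margin was narrow for NaCl, whose lowest library had 43.0%, against 42.4% in the highest control library, and whose replicate 2 had 50.1%. Paraquat 1 h had 37.9% ± 0.689 and Heat 1 h 35.0% ± 0.177, against the same control of 40.7% ± 1.55, with all libraries below those of the control.

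At 3 h the gap to the control was wider for NaCl and Trehalose. For Mannitol it was wider only with Control 3 h replicate 2 included. Libraries of NaCl 3 h had 48.2%, 43.5% and 46.5%, those of Mannitol 3 h 44.2%, 44.5% and 47.8%, and those of Trehalose 3 h 47.2%, 49.2% and 47.4%, against 41.4%, 31.0% and 37.2% in Control 3 h. All 9 stress libraries lay above the 3 control libraries, also above the highest of them. The log2 ratio of mean shares was 0.34 for NaCl, 0.32 for Mannitol and 0.39 for Trehalose. At 1 h these ratios were 0.16, 0.21 and 0.14. Without Control 3 h replicate 2 the 3 h ratios were 0.23, 0.21 and 0.29. The Control mean itself was 36.5% at 3 h and 40.7% at 1 h, and the change of the gap between these times was not tested. Paraquat 3 h (37.9% ± 1.79) and Heat 3 h (37.5% ± 2.11) overlapped with Control 3 h (36.5% ± 5.23). Their log2 ratios were 0.06 and 0.04, and turned to -0.05 and -0.07 without that control library.

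At 24 h the shares under NaCl and Trehalose had changed from above the control to below it. Those under Paraquat and Heat were below it, as at 1 h. NaCl 24 h at 39.0% ± 1.01, Trehalose 24 h at 41.0% ± 2.32, Paraquat 24 h at 39.9% ± 1.94 and Heat 24 h at 40.8% ± 2.06 lay below Control 24 h at 44.7% ± 1.49, and every library of these stresses lay below every control library. Control 24 h was itself above Control 1 h in every library. Mannitol 24 h, at 44.8% ± 3.16, overlapped with Control 24 h. The part of the total held by ARId1 was larger than in Control in 2 of the groups below Control, NaCl 24 h and Trehalose 24 h. ARId1 genes held 11.4% ± 0.0644 of TPM in NaCl 24 h and 8.84% ± 0.498 in Trehalose 24 h, against 3.62% ± 0.134 in Control 24 h. ARId1 genes also held more in Mannitol 24 h, at 5.38% ± 0.673, where the members' share overlapped with Control 24 h. With ARId1 left out of the total, the log2 ratio of the members' share was -0.07 in place of -0.20 for NaCl 24 h and -0.04 in place of -0.12 for Trehalose 24 h. For Paraquat 24 h and Heat 24 h it was -0.17 and -0.14, close to the -0.17 and -0.13 with ARId1 in the total. These shares are sums over members chosen by level and carry no test. What lowered the members' share at 24 h was not tested.

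**Figure D2:**
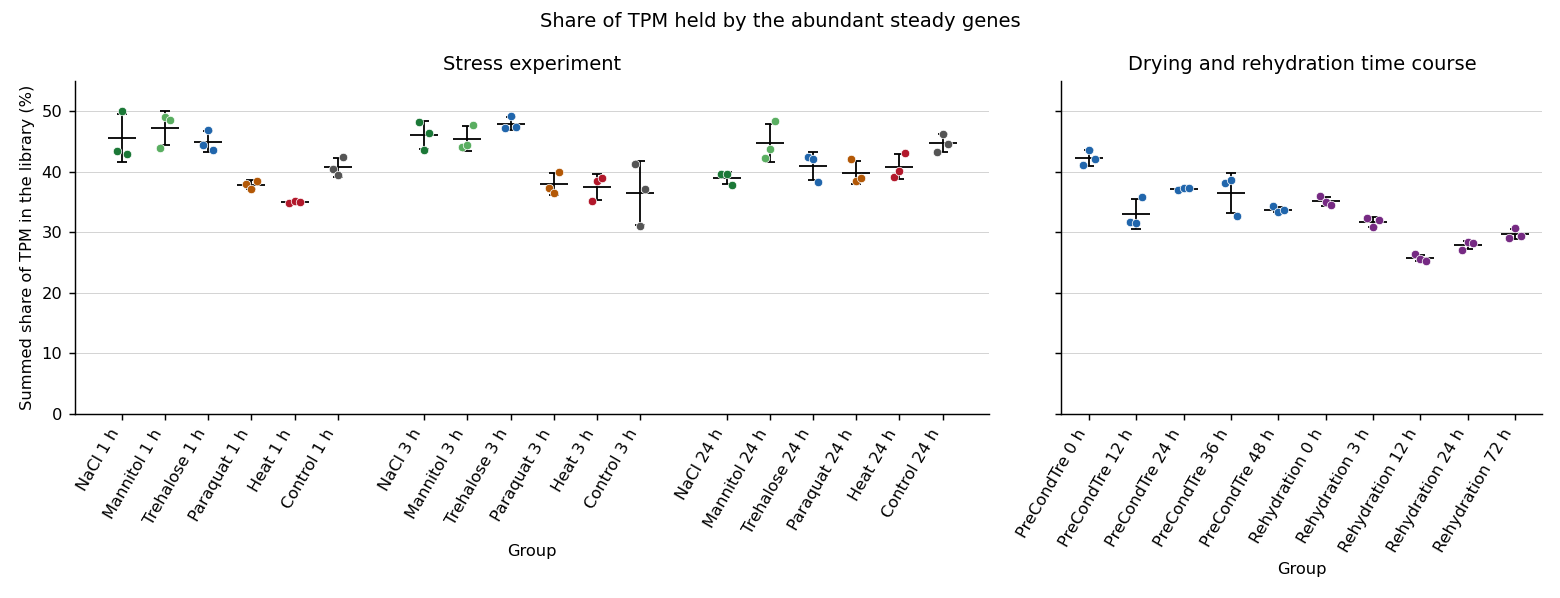
Percent of TPM held by the 120 members in each stress library at 1, 3 and 24 h, with each stress left of its Control. The right panel gives the time course in order of sampling, points are single libraries, and bars are means of 3 with their SD. At 3 h the NaCl, Mannitol and Trehalose libraries sit between 43.5% and 49.2%, above all Control 3 h libraries (31.0% to 41.4%), and at 24 h all stress groups other than Mannitol sit below Control 24 h (43.3% to 46.3%).

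The shift came from many members at once. At Trehalose 3 h, 105 members had a higher mean than in Control 3 h and together gained 11.9 percentage points, of which g4090, the largest contributor, gave 0.684 points. At NaCl 24 h, 96 members had a lower mean than in Control 24 h and together changed the share by -6.90 points, of which g9524, named after its value was seen, gave -0.229 points. The 36 abundant genes left out by the rule, ARId1 genes among them, also held a higher share at 3 h, at 15.8% ± 0.156 in NaCl 3 h, 12.6% ± 0.203 in Mannitol 3 h and 13.4% ± 0.0962 in Trehalose 3 h, against 11.5% ± 0.430 in Control 3 h. Their share stayed above the control at 24 h, when they held 19.5% ± 0.423 in NaCl 24 h, 16.6% ± 0.346 in Trehalose 24 h against 12.2% ± 0.147 in Control 24 h.

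Single members were tested with limma on log2(TPM + 1) among 9450 genes with a mean above 1 TPM, with Benjamini-Hochberg adjustment over all of these. A member rose or fell where its adjusted p was under 0.05, and it was called over 2-fold where the change also passed 2-fold. Stresses of the same time share 1 control group, and Control 1 h was used in the rule, so the comparisons are given side by side and are not independent. TPM has no scaling between libraries. Median ratio scaling, in which the typical gene is held level, moved the median of all genes by between -0.32 and 0.75 on the log2 scale over the 15 comparisons, and by over 0.1 in 12 of them. The shares of all genes given below are from unscaled TPM. None is given under this scaling, so member counts under it have no such share beside them.

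At 1 h without scaling between libraries, about as many members rose as did not in Mannitol, and fewer changed in the other groups. In Mannitol 1 h, 61 rose and 5 fell, where 4.41% of all genes tested rose and 39.3% fell. In NaCl 1 h, 15 members passed the test upward and 6 downward, beside 6.23% and 42.7% of all genes, and in Trehalose 1 h, 14 rose and 1 fell (4.85% and 32.8%). The members' medians on the log2 scale were 0.23 in Mannitol 1 h beside -0.34 for all genes, 0.15 beside -0.33 in NaCl 1 h, and 0.14 beside -0.23 in Trehalose 1 h. In each case the members' median was above 0 and that of all genes below 0. Under median ratio scaling 96 members rose in NaCl 1 h, 99 in Mannitol 1 h and 22 in Trehalose 1 h, and none fell in any of them by limma, so the gap in counts between Mannitol and NaCl depended on the scaling. None of the 120 was called over 2-fold by limma, where 12.1% of all genes were in NaCl 1 h, 3.82% in Mannitol 1 h and 3.25% in Trehalose 1 h. At an unadjusted p under 0.05, the members that changed numbered 40, 84 and 26 in these groups. Of the 9450 genes tested, 5070, 4745 and 4178 did. The counts were sensitive to single libraries. In Mannitol 1 h the number that rose was 17 without Control 1 h replicate 2, 30 without Control 1 h replicate 1, and 19 or 20 when replicate 2 or 3 of Mannitol 1 h was left out. In NaCl 1 h it was 7 without Control 1 h replicate 2, 9 without Control 1 h replicate 1 or NaCl 1 h replicate 2 and 31 without NaCl 1 h replicate 3, and in Trehalose 1 h it was 7 without Control 1 h replicate 1 or 2 and 8 without Trehalose 1 h replicate 2. In Paraquat 1 h, 0 members passed limma's adjusted test (0.0106% of all genes rose and 0.0106% fell, with 0% over 2-fold). An unadjusted p under 0.05 was reached by 12 members and 1456 of the 9450 genes tested.

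At 3 h in unscaled TPM, most members rose under all 3 osmotic stresses while most other genes fell. In NaCl 3 h, 90 members rose and 11 fell, where 9.42% of all genes rose and 63.5% fell. In Mannitol 3 h the members up and down numbered 91 and 7 (12.3% and 50.9% of all genes), and in Trehalose 3 h, 93 rose and 9 fell (9.48% and 59.3%). Most changes were under 2-fold in TPM as deposited. The median log2 change of members was 0.35 in NaCl 3 h, 0.32 in Mannitol 3 h and 0.41 in Trehalose 3 h, beside -0.75, -0.43 and -0.62 for all genes. The rise was not particular to the members. Of the 23 abundant genes past a limit of the rule, 14 rose in each of these groups and 6, 6 and 5 fell. Their medians were 0.47, 0.25 and 0.39. In unscaled TPM g4090 was the single member called over 2-fold, in Mannitol 3 h and in Trehalose 3 h, where 25.2% and 30.2% of all genes were. In NaCl 3 h 0 members were, where 40.0% of all genes were. There, 101 members and 7063 of the 9450 genes tested had an unadjusted p under 0.05. Under median ratio scaling, 120, 113 and 116 members rose in NaCl, Mannitol and Trehalose 3 h and none fell by limma. The members' medians were 1.23, 0.81 and 1.10, beside 0.001, -0.0004 and -0.0155 for all genes, which this scaling holds level. Over 2-fold were 94, 5 and 79 members, so that the size of the change depended on the scaling. No share of all genes under this scaling is given here. Without Control 3 h replicate 2, 68 rose in NaCl 3 h, 49 in Mannitol 3 h and 87 in Trehalose 3 h.

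In unscaled TPM the rises at 3 h were concentrated in the upper part of the list. Of the 69 members above 3000 TPM, 67 rose in NaCl 3 h, 66 in Mannitol 3 h and 66 in Trehalose 3 h, and none fell. Of the 32 members below 2000 TPM, 10, 13 and 12 rose and 9, 5 and 9 fell. Under median ratio scaling 120, 113 and 116 of the 120 members rose, so this split of the counts depended on the scaling. The mean level that orders the list also includes these 3 h libraries. The members that fell in unscaled TPM were few and partly recurred. Under each of the 3 stresses g6618, g14005 and g4530 fell, although under median ratio scaling g14005 and g4530 were above 0 in all 3 and g6618 in NaCl and Trehalose. The genes g14005 and g4530 were chosen after their values were seen.

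**Figure D3:**
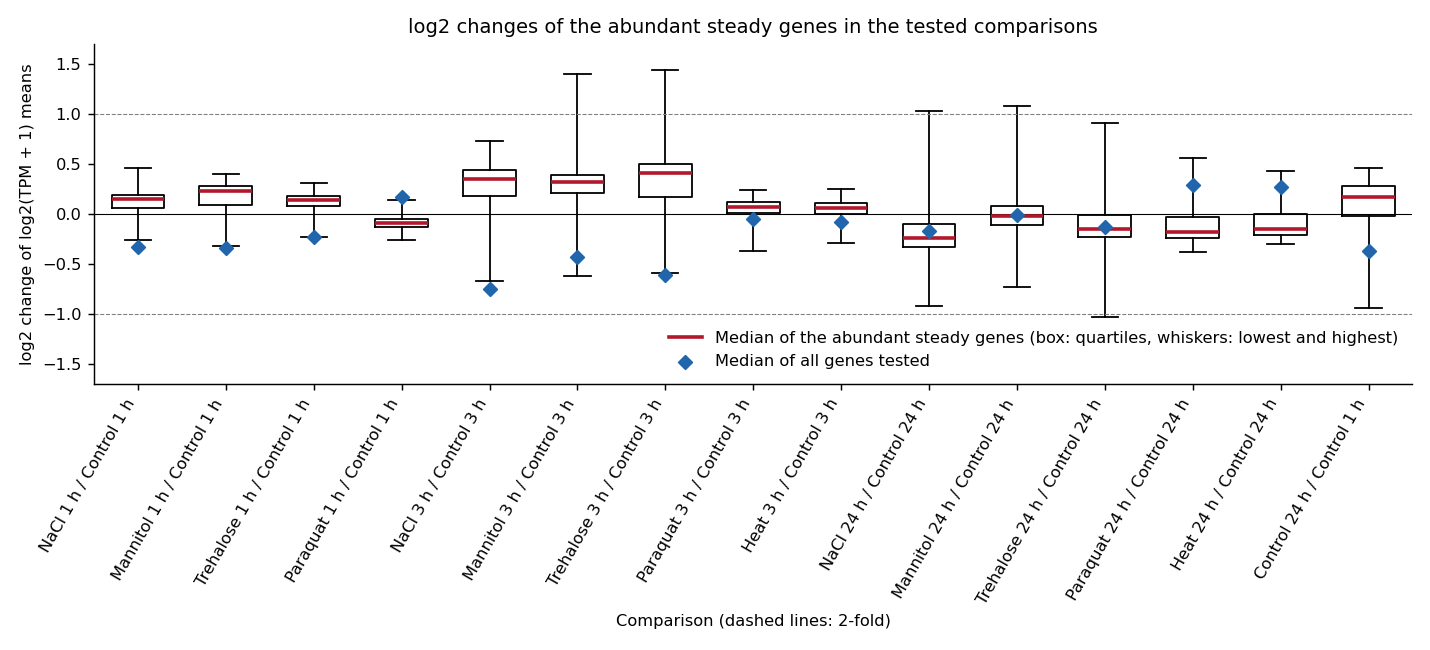
Log2 changes of the 120 members in each stress over the Control of its time and in Control 24 h over Control 1 h, from limma on log2(TPM + 1), with boxes for quartiles, whiskers for the lowest and highest member and a diamond for the median of all genes tested. At 3 h the members' medians under NaCl, Mannitol and Trehalose are 0.35, 0.32 and 0.41, beside -0.75, -0.43 and -0.62 for all genes.

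The gene with the largest stress response of all members was g4090, whose group means spanned 3.84-fold over the 18 stress groups. It had 10672, 11393 and 10464 TPM in Trehalose 3 h and 10263, 10205 and 11021 TPM in Mannitol 3 h, against 4547, 3692 and 3779 TPM in Control 3 h. The libraries of both stresses lay far above those of the control. The log2 change was 1.44 ± 0.08 (SE) in Trehalose 3 h (limma adjusted p = 1.81e-19) and 1.39 ± 0.08 in Mannitol 3 h (limma adjusted p = 5.95e-19). In NaCl 3 h it had 6641, 5758 and 6256 TPM, against the same 3 control libraries, and the log2 change was 0.64 ± 0.08 (limma adjusted p = 1.24e-09). Its NaCl 3 h libraries lay between those of the control and those of the other 2 stresses, and the difference between stresses was not tested. At 24 h it had 7142, 6373 and 5852 TPM in Trehalose 24 h, 6827, 7339 and 7530 TPM in Mannitol 24 h and 6197, 5698 and 5723 TPM in NaCl 24 h, against 3632, 3447 and 3185 TPM in Control 24 h. The groups again did not overlap. The log2 change was 0.91 in Trehalose 24 h (limma adjusted p = 2.13e-13), 1.08 in Mannitol 24 h (limma adjusted p = 3.01e-15) and 0.78 in NaCl 24 h (limma adjusted p = 1.34e-11). After heat it went the other way, at -0.27 in Heat 3 h (limma adjusted p = 0.0339) and -0.28 in Heat 24 h (limma adjusted p = 0.0192), with the first at -0.19 and adjusted p = 0.801 by limma under median ratio scaling.

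A second responder, g9262, was led by salt. It had 4833, 5069 and 4767 TPM in NaCl 24 h, against 2452.6, 2241 and 2471 TPM in Control 24 h. The salt libraries were all above those of the control. The log2 change was 1.03 ± 0.07 (limma adjusted p = 3.03e-16), and it was 0.99, just under 2-fold, without Control 24 h replicate 2. It was 0.55 in Mannitol 24 h (limma adjusted p = 1.15e-08) and 0.54 in Trehalose 24 h (limma adjusted p = 1.39e-08). At earlier times it rose in NaCl as well, with 4905, 5218 and 5091 TPM in NaCl 3 h, against 2825, 3407 and 2998 TPM in Control 3 h, a log2 change of 0.72 (limma adjusted p = 4.1e-12). In Mannitol 1 h it fell, by 0.30 on the log2 scale (limma adjusted p = 0.000544), but stood at 0.09 under median ratio scaling. This is also the member whose level dropped most across drying.

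The largest fall was that of g6773 under trehalose. It had 680, 753 and 693 TPM in Trehalose 24 h, against 1360, 1501 and 1484 TPM in Control 24 h. These libraries did not overlap. The log2 change was -1.03 ± 0.05 (limma adjusted p = 1.92e-21). It fell less in Mannitol 24 h, at -0.63 (limma adjusted p = 2.14e-14), and in NaCl 24 h, at -0.48 (limma adjusted p = 1.46e-11), the last of which was -0.30 with adjusted p = 0.109 by limma under median ratio scaling. At 3 h its log2 change was -0.23 in Trehalose 3 h and -0.12 in Mannitol 3 h, and both were above 0 under median ratio scaling.

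Among the least abundant members, g6618 fell under every osmotic stress at 3 and 24 h. It had 809, 785 and 797 TPM in Trehalose 3 h, 758, 765 and 791 TPM in Mannitol 3 h and 853, 865 and 874 TPM in NaCl 3 h, against 1160, 1196 and 1213 TPM in Control 3 h. All 9 stress libraries were below the control. The log2 changes were -0.58, -0.62 and -0.46, with limma adjusted p of 2.34e-16, 2.7e-17 and 9.98e-14. At 24 h it had 755, 825 and 803 TPM in Trehalose, 783, 822 and 798 TPM in Mannitol and 927, 933 and 915 TPM in NaCl, against 1296, 1328 and 1362 TPM in Control 24 h. The 24 h changes were -0.74, -0.73 and -0.52, with limma adjusted p of 1.09e-19, 4.89e-19 and 5.48e-15. Under median ratio scaling the falls at 24 h remained below 0 (-0.58, -0.74 and -0.34), while those at 3 h became 0.12 in Trehalose, -0.13 in Mannitol and 0.41 in NaCl.

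**Figure D4:**
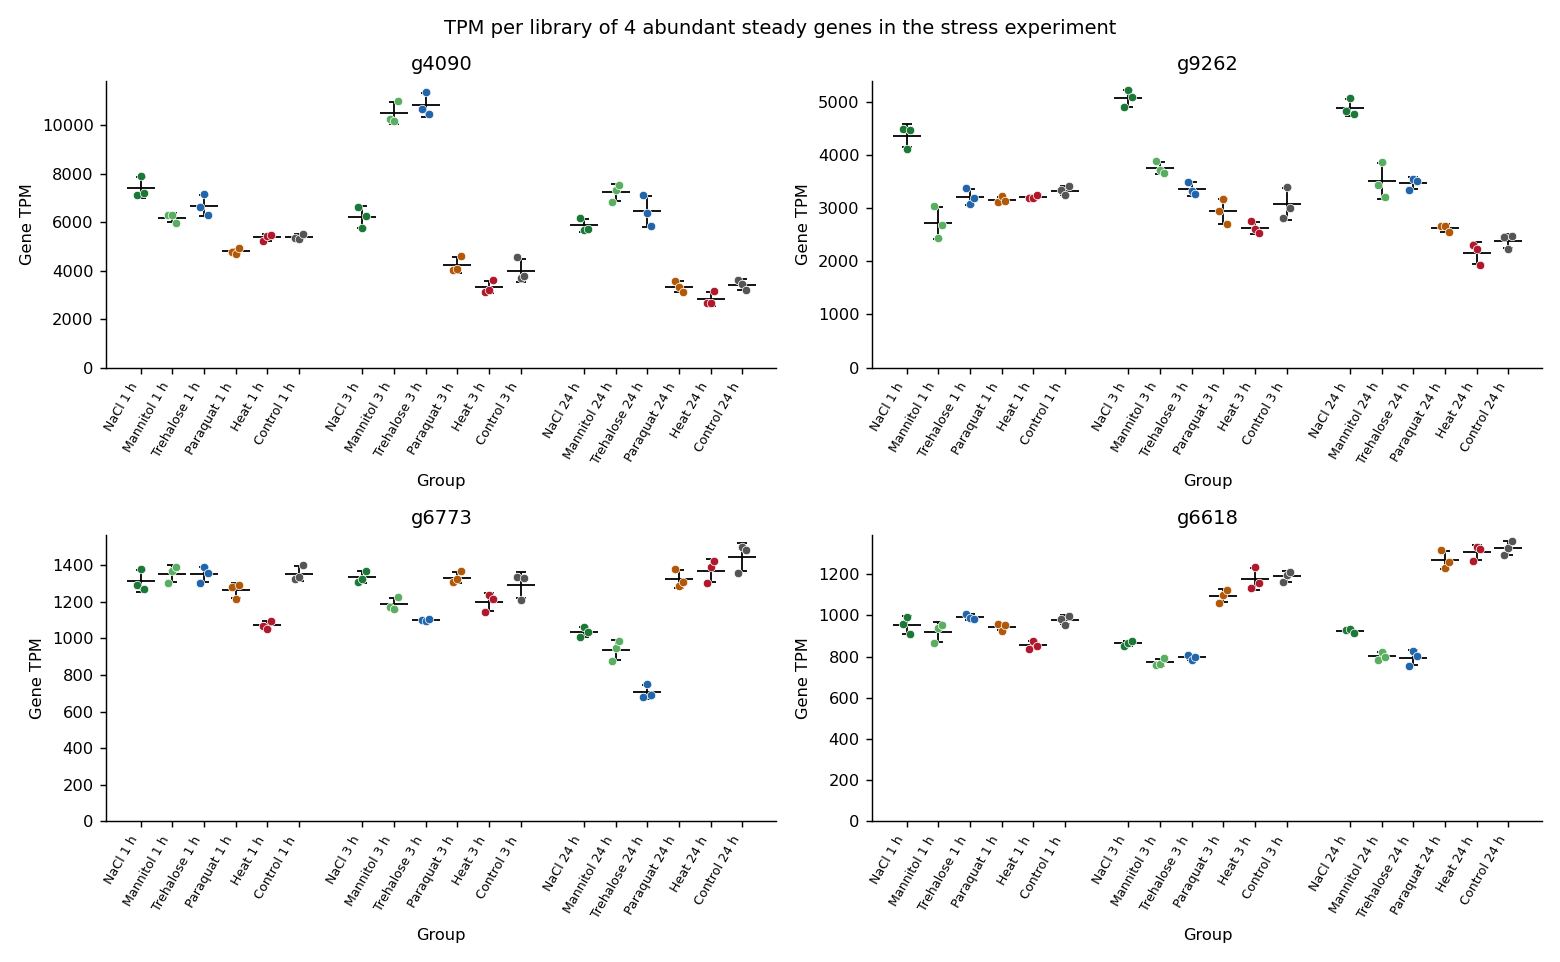
TPM of g4090, g9262, g6773 and g6618 in each stress library and its Control at 1, 3 and 24 h, with points for libraries and bars for means of 3 with their SD. The Mannitol and Trehalose libraries of g4090 at 3 h lie between 10205 and 11393 TPM, above Control 3 h at 3692 to 4547 TPM, and the Trehalose 24 h libraries of g6773 lie between 680 and 753 TPM, below Control 24 h at 1360 to 1501 TPM.

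The most abundant member, g10339, moved with the group at 3 h. It had 11514, 11852 and 11257 TPM in NaCl 3 h, against 9777, 8280 and 8894 TPM in Control 3 h, a log2 change of 0.36 ± 0.06 (limma adjusted p = 8.37e-07), and the changes in Mannitol 3 h and Trehalose 3 h were both 0.35. All 9 libraries of these stresses lay above the control. The next in level, g9066, had 10969, 11860 and 11250 TPM in Trehalose 3 h, against 10144, 6540 and 8131 TPM in Control 3 h, a log2 change of 0.48 ± 0.10 (limma adjusted p = 8.46e-05). The middle control value, from Control 3 h replicate 2, was the lowest by a wide margin, and without 1 library the change ran between 0.32 and 0.64.

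At 24 h, more members fell than rose, in contrast to 3 h. In NaCl 24 h, 11 rose and 67 fell (16.7% and 38.0% of all genes), in Trehalose 24 h, 15 rose and 41 fell (19.6% and 33.0%), and in Mannitol 24 h, 15 rose and 16 fell (21.3% and 27.2%). The number that rose in NaCl 24 h was 7 without NaCl 24 h replicate 3 or Control 24 h replicate 2, and the number that fell in Trehalose 24 h was 25 without Trehalose 24 h replicate 3 and 27 without Control 24 h replicate 2. The members' median log2 change was -0.24 in NaCl 24 h, -0.15 in Trehalose 24 h and -0.02 in Mannitol 24 h, beside -0.17, -0.13 and -0.01 for all genes, so at this time the typical member lay within 0.1 of the typical gene. Under median ratio scaling only 5 fell and 15 rose in NaCl 24 h, and 7 fell and 15 rose in Trehalose 24 h. One member was called over 2-fold in each, g9262 in NaCl (19.0% of all genes), g4090 in Mannitol (13.2%) and g6773 in Trehalose (17.3%). Under median ratio scaling g6773 was at -0.87 in Trehalose 24 h, short of 2-fold, and the member past it there was g4090 at 1.08.

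Paraquat and heat gave few calls among the members at later times. In Paraquat 24 h, 0 rose and 12 fell, where 19.1% of all genes rose and 0.910% fell, and none was over 2-fold by limma (2.90% of all genes). At an unadjusted p under 0.05 were 74 members and 4468 of the 9450 genes tested. The count past the adjusted test depended on single libraries. It was 0 without Control 24 h replicate 2 or 3 or Paraquat 24 h replicate 2 or 3, and 46 without Paraquat 24 h replicate 1. The largest fall was in g11209 at -0.34 (limma adjusted p = 0.0496), named after its value was seen. In Heat 24 h, 6 members passed limma's test (17.9% of all genes), 1 up and 5 down, where 1516 of the 9450 genes tested rose and 179 fell, with 0 over 2-fold (1.79%). At an unadjusted p under 0.05 were 40 members and 4081 of all genes tested. The count past the test was 0 without Control 24 h replicate 2 or Heat 24 h replicate 1 or 2, 1 without Control 24 h replicate 3 and 31 without Heat 24 h replicate 3. Those that fell were g4090, g2690, g10334, g14004 and g5788, with log2 changes of -0.28, -0.28, -0.25, -0.21 and -0.15, and g2453 rose by 0.15 but stood at -0.23 under median ratio scaling. In Heat 3 h, 2 rose and 2 fell (1.71% and 2.65%), with 0 over 2-fold by limma (0.487%). At an unadjusted p under 0.05 were 14 members and 1309 of all genes tested. The count past the adjusted test was 0 without Heat 3 h replicate 2, 2 without Heat 3 h replicate 1 or 3 or Control 3 h replicate 3, and 8 without Control 3 h replicate 1. Those that rose were g13236 at 0.23 (limma adjusted p = 0.00837) and g11995 at 0.12, and those that fell were g4090 at -0.27 and g5788 at -0.16. In Paraquat 3 h no member passed limma's test, nor did any of all genes (0% up, 0% down, 0% over 2-fold). An unadjusted p under 0.05 was reached by 14 members and 472 of all genes tested. Without Control 3 h replicate 1, 2 members were past the adjusted test. The genes of these lists other than g4090 were chosen after their values were seen.

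Several lower members had a large stress change at 24 h. For g8645, one of the members with the widest time-course span, the 3 libraries of NaCl 24 h had 951, 950 and 953 TPM, against 1711, 1853 and 1857 TPM in Control 24 h, a log2 change of -0.92 ± 0.07 (limma adjusted p = 8.68e-15). For g10054, Trehalose 24 h had 927, 926 and 991 TPM, against 1783, 1774 and 1754 TPM in Control 24 h, a log2 change of -0.90 ± 0.03 (limma adjusted p = 3.13e-24). In both genes all stress libraries were below all control libraries, and the changes under median ratio scaling were -0.74 and -0.74. The neighbouring IDs g2690 and g2691 rose in Trehalose 24 h. The values of g2690 were 2200, 2063 and 1757 TPM, against 1158, 1194 and 1115 TPM in Control 24 h, and the log2 change was 0.79 (limma adjusted p = 5.51e-10). The values of g2691 were 1907, 1660 and 1455 TPM, against 912, 1021 and 872 TPM, and the log2 change was 0.83 (limma adjusted p = 1.55e-10). Whether the reads of consecutive IDs can be told apart was not tested. One of the members turned with the stress: g9526 had 668, 710 and 752 TPM in NaCl 24 h and 1205, 1298 and 1374 TPM in Trehalose 24 h, against 1002, 912 and 976 TPM in Control 24 h. It fell in NaCl 24 h, at -0.44 (limma adjusted p = 0.000216), and rose in Trehalose 24 h, at 0.42 (limma adjusted p = 0.000383), with signs that stayed under median ratio scaling. Its fall in NaCl 3 h was larger, at -0.67, but changed sign under that scaling. The genes g10054, g2690 and g2691 were chosen after their values were seen.

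Untreated cells changed as well. In Control 24 h over Control 1 h, 49 members rose and 19 fell, where 10.7% of all genes rose and 45.7% fell, and the members' median log2 change was 0.17 beside -0.37 for all genes. With median ratio scaling the counts were 95 and 3. By limma 0 were over 2-fold (14.2% of all genes). At an unadjusted p under 0.05 were 75 members and 5840 of the 9450 genes tested. The count past the adjusted test was 34 without Control 1 h replicate 2 and 36 without Control 24 h replicate 2. One member passed 2-fold without Control 24 h replicate 3. The most abundant member, g10339, fell, with 8266, 8211 and 8507 TPM in Control 24 h, against 11144, 11543 and 11435 TPM in Control 1 h. The groups did not overlap, and the log2 change was -0.45 ± 0.06 (limma adjusted p = 6.93e-08), but it was 0.00 under median ratio scaling. The largest falls were those of g7800 at -0.94 (limma adjusted p = 0.00017) and g2506 at -0.79 (limma adjusted p = 0.000974), which were -0.49 and -0.34 under median ratio scaling. For g7800 the values were 554, 478 and 604 TPM in Control 24 h, against 1027, 1123 and 978 TPM in Control 1 h. Both g4090 and g9262 also fell in untreated cells, at -0.66 (limma adjusted p = 4.6e-09) and -0.48 (limma adjusted p = 4.26e-07). Under median ratio scaling these were -0.21 and -0.03. The gene g6618 rose, with 1296, 1328 and 1362 TPM in Control 24 h, against 981, 955 and 999 TPM in Control 1 h, a log2 change of 0.44 ± 0.04 (limma adjusted p = 5.53e-12). For the stresses at 24 h, these are the levels that the stressed libraries are compared with. The gene g2506 was chosen after its values were seen.

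The change of the response between 3 and 24 h was itself tested, as the effect at 24 h minus the effect at 3 h. For NaCl, 87 members had a lower effect at 24 h and 4 a higher one, where 5.68% and 50.5% of all genes did, and for Trehalose, 90 had a lower and 12 a higher effect, where 5.66% and 40.9% of all genes did. Over 2-fold were g2608 at -1.005 (limma adjusted p = 1.14e-05) and g4868 at -1.03 (limma adjusted p = 0.000266) for NaCl, where 25.2% of all genes were. The gene g4868 had 5139, 5164 and 4633 TPM in NaCl 24 h, against 6317, 7164 and 6604 TPM in Control 24 h, and 6814, 5494 and 6263 TPM in NaCl 3 h, against 5371, 2631 and 4770 TPM in Control 3 h. The lowest of these is again in Control 3 h replicate 2. In this contrast 0 members passed 2-fold when replicate 2 of Control 24 h or Control 3 h, NaCl 24 h replicate 3 or NaCl 3 h replicate 1 was left out, and 14 did without Control 3 h replicate 1. Without Control 3 h replicate 2, 84 members had a lower and 1 a higher effect for NaCl, and 88 and 10 for Trehalose. With median ratio scaling 113 and 99 had a lower effect and 0 a higher one by limma, and 84 and 79 passed 2-fold. For Mannitol and Trehalose, the effect on g4090 was larger at 3 h than at 1 h by 1.199 and 1.14 on the log2 scale, where 9.57% and 8.41% of all genes passed 2-fold, and for g6773 the effect of Trehalose at 24 h was lower than at 1 h, at -1.03, where 13.0% of all genes passed 2-fold, but no member passed it without Trehalose 24 h replicate 1. The genes g2608 and g4868 were chosen after their values were seen, and these differences between times were added to the planned comparisons.

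Across the 18 stress groups, 119 of 120 members spanned less than 3-fold between the highest and lowest group mean. The median span was 1.52-fold. Under median ratio scaling, 113 members spanned less than 3-fold. The rule used these groups in the mean level over all 84 libraries, and Heat 1 h and Control 1 h in the heat ratio. The smallest spans were those of g6580 (1.27-fold), g12287 (1.28-fold) and g11137 (1.29-fold), and the largest were those of g4090 (3.84-fold), g9262 (2.35-fold) and g9526 (2.17-fold). Of the 36 abundant genes left out, 18 spanned less than 3-fold, and of the 23 of these that were not left out by ID, 14 did. Among 8943 genes with g and a number as ID and a mean above 1 TPM, 51.8% did. No test is attached to this comparison, since levels set the noise of a span and the members were selected on steadiness in the other experiment. The members were most often highest in Trehalose 3 h (33 members), Control 24 h (17) and NaCl 3 h (16), and most often lowest in Heat 1 h (61). These counts were not set beside those of all genes, so the pattern cannot be called particular to the members.

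**Figure D5:**
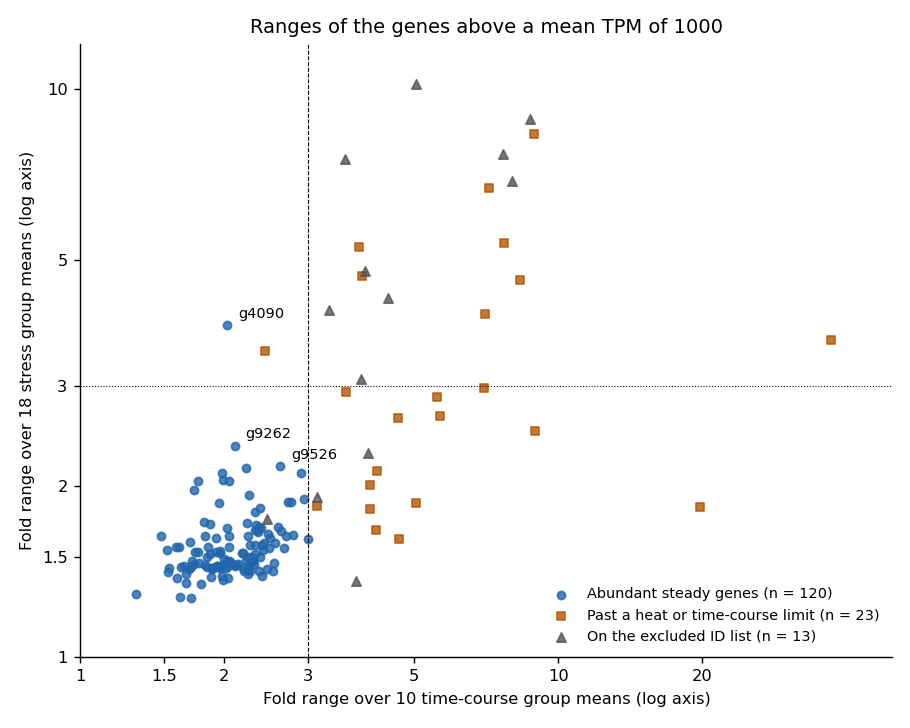
Fold span of group means over the 18 stress groups against that over the 10 time-course groups, for the 120 members, 23 abundant genes past a limit and 13 left out by ID, on log axes with lines at 3-fold. All members lie under 3-fold in the time course by rule, and 119 of 120 lie under 3-fold in the stress groups, with g4090 at 3.84-fold.

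The gene totals hide a mixture of transcripts. The members had 4363 transcripts listed in all, with a median of 21 per gene and up to 297, and 4 members had a single one. The leading transcript held a median of 54.4% of its gene's TPM, and over 90% in 10 members. In 82 members the same transcript led in all 28 groups. The leading transcript's share varied most over groups in g17015, g12743 and g6618. In g17015, transcript g17015.t1 had 77.9% ± 2.24 of the gene's TPM at Rehydration 24 h and 12.7% ± 7.10 in Trehalose 24 h, but the SD within a group reached 27.4 points (PreCondTre 36 h), so that many of these differences lie within the replicate spread. In g6618, transcript g6618.t1 had 28.7% ± 7.83 in Trehalose 24 h, against 29.96% ± 6.20 in Control 24 h, a difference smaller than the SD of either group, in libraries whose gene total had a log2 change of -0.74. How RSEM divides reads among transcripts that share sequence could enter these shares and was not tested.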

How the data were processed

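RNA of Pv11 cells was analysed in 84 libraries of 28 groups with 3 biological replicates each. The authors mapped reads to coding sequences with Bowtie2 and estimated TPM with RSEM through a Trinity utility, and deposited TPM per transcript as a single table. Their own tests (DESeq2 and edgeR, on counts) were not used here. TPM holds no depth and no scaling between libraries.

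Transcripts were summed per gene, and the rule for members was applied with Python 3.11.15, pandas 2.3.3 and numpy 2.4.6. The 54 stress libraries were fitted together in limma 3.58.1 (R 4.3.3, data.table at 1.17.8) on log2(TPM + 1), with a coefficient for each group and empirical Bayes moderation along a trend of variance on level, for 9450 genes with a mean above 1 TPM. Members passed where the p, adjusted by Benjamini-Hochberg over all genes, was under 0.05, and 2-fold calls also needed a change above 2-fold. The fit was tested on simulated data. Figures were drawn with matplotlib 3.10.9.

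The members and lists were chosen with earlier results of these data known. Genes were named by rule: the 10 most abundant members, up to 3 rises and 3 falls per comparison among 2-fold calls, the 2 genes on either side of each threshold (1 outside the heat limit), the 3 smallest and 3 largest spans over stress groups, and the 3 members with the most variable leading transcript; others are said to be chosen after their values were seen. Alternatives were a pseudocount of 0.1, no filter on low values, no trend, only the 2 groups compared, median ratio scaling, the replicate number as a block, other thresholds for members, ARId1 left out of the total, and replicates left out by number or singly. Gene IDs were looked up in the RefSeq gene table of assembly Pv_5.2 (17863 genes), and 0 of 120 matched.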

Additional observations from a re-analysis of the deposited data

Results flagged for a closer look

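The shift of the members' share against the control changed sign between times under NaCl and Trehalose, and these differences were not tested. The shift, stress minus control, at 24 h minus that at 1 h was -10.5 percentage points for NaCl, and at 24 h minus that at 3 h it was -15.2 points. Without Control 3 h replicate 2, a library with a low member share, the second of these was -12.5 points. For Trehalose it was -7.90 points at 24 h relative to 1 h and -15.2 points relative to 3 h, or -12.4 points without that library. In each case every stress library lay above its control at the earlier time and below it at 24 h.

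Single members differed in response between times by limma's test of the difference. For NaCl, 24 h minus 3 h, the log2 difference was -1.005 for g2608 and -1.03 for g4868. For g4090 the response was larger at 3 h than at 1 h by 1.199 under Mannitol and by 1.14 under Trehalose. For g6773 the response to Trehalose at 24 h minus that at 1 h was -1.03.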

How the results depend on the processing

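Among checks of a named member's log2 change, 1247 kept direction and side of the threshold, 193 lost the call, 1 gained it and 14 turned. All that turned did so under median ratio scaling: g9262 in Mannitol 1 h (0.0904), g6773 in Mannitol 3 h (0.37) and Trehalose 3 h (0.46), g10339 in Control 24 h over 1 h (0.0033), g6618 in NaCl 3 h (0.41) and Trehalose 3 h (0.12), g14005 in NaCl, Mannitol and Trehalose 3 h (0.49, 0.15 and 0.11), g4530 in the same groups (0.38, 0.25 and 0.38), g9526 in NaCl 3 h (0.21) and g2453 in Heat 24 h (-0.23). By construction this scaling sets the typical gene level. It also gave 94, 5 and 79 members over 2-fold in NaCl, Mannitol and Trehalose 3 h, and counts past the adjusted test of 96 in NaCl 1 h, 0 in Heat 3 h, 20 in NaCl 24 h, 19 in Mannitol 24 h, 22 in Trehalose 24 h, 0 in Paraquat 24 h and 20 in Heat 24 h. Shares of all genes under this scaling are not given here.

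With only the 2 groups compared, that count was 4 in NaCl 1 h, 53 in NaCl 3 h, 26 in Mannitol 3 h, 66 in Trehalose 3 h, 0 in Heat 3 h, 20 in Mannitol 24 h, 66 in Paraquat 24 h and 0 in Heat 24 h. Without a filter it was 2 in Heat 3 h and 0 in Paraquat 24 h, and without a trend 1 and 5. With fewer libraries the ranges were 9 to 37 in NaCl 1 h, 15 to 81 in Mannitol 1 h, 3 to 16 in Trehalose 1 h, 49 to 101 in Mannitol 3 h, 0 to 2 in Paraquat 3 h, 0 to 8 in Heat 3 h, 42 to 76 in NaCl 24 h, 34 to 53 in Trehalose 24 h, 0 to 46 in Paraquat 24 h, 0 to 31 in Heat 24 h and 27 to 68 in Control 24 h over 1 h, and for 2-fold calls 0 to 1 in NaCl 24 h, Trehalose 24 h and Control 24 h over 1 h, and 1 to 2 in Mannitol 24 h. The log2 ratio of the share ran between 0.0625 and 0.230 in NaCl 1 h, 0.0876 and 0.195 in Trehalose 1 h, and -0.228 and -0.115 in Paraquat 24 h, and without ARId1 in the total it was -0.0749 in NaCl 24 h and -0.044 in Trehalose 24 h. Leaving out single libraries for the share, and all checks of the differences between times, were chosen after seeing the data.

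Same-numbered libraries mostly did not deviate together (14 of 45 pairs with a correlation above 0.1, range -0.736 to 0.411). In 1 comparison, Paraquat 1 h, all 3 pairs were above 0.1, and there 0 members passed the test with or without the block. The numbers were not taken to pair the samples. With the block, Paraquat 24 h had 4 members past the test in place of 12. A minimum mean of 500 or 2000 TPM gave 175 or 88 members, and a time-course span below 2-fold gave 51. Depth is unknown.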
